A study of Mus musculus with 20 samples.

Results

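Day 28 of the reprogramming of extraembryonic endoderm (XEN) cells towards induced pluripotent stem (iPS) cells was compared with XEN before induction, in the 4 of the 20 single-cell RNA-seq libraries of the series that hold these conditions. The members of the comparison were all genes, measured as unique molecular identifiers (UMIs, counted RNA molecules) summed per library over cells with at least 500 genes and fewer than 5 UMIs of the fibroblast collagens Col1a1, Col1a2 and Col3a1 together. All 4 libraries are labelled as the embryo-derived line 3F-4 XEN and carry on both copies Col1A1TetO-OKSmCh/TetO-OKSmCh, a doxycycline-inducible cassette of Oct4, Klf4, Sox2 and mCherry. With it go R26M2rtTA/M2rtTA, the transactivator expressed from the Rosa26 locus, and the reporter Oct4-GFPTg/Tg. XEN libraries (XEN, Day 0) came from cells kept on fibroblast feeders in the reprogramming medium, with ascorbic acid and a GSK3 inhibitor, without doxycycline. Day 28 libraries came from cells given doxycycline, chosen for mCherry at the start, dissociated with more concentrated trypsin, sorted by SSEA-1 and Oct4-GFP at the end and put together again in roughly equal parts. Shares of cells at day 28 are therefore not those of the culture, and the effects of doxycycline, time, sorting and dissociation cannot be told apart. The 2 libraries of a condition are technical duplicates, so that errors and p-values measure the spread between libraries and not between cultures.

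XEN cells are the cultured counterpart of the primitive endoderm, which forms the yolk sac, and are known for the transcription factors Gata4, Gata6, Sox17 and Sox7 and for an abundant basement membrane of laminins and type IV collagen. The sister lineage, the epiblast, is held in the pluripotent state by Pou5f1 (Oct4), Sox2 and Nanog, as are embryonic stem (ES) cells. Germline genes such as the Dppa and Rhox genes are also active in mouse pluripotent cells, and many of them are silenced by DNA methylation elsewhere.

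Promoters of 4 genes that moved in opposite directions are shown, to set beside each other the start sites of 2 genes called higher at day 28 (Zfp42 and Fos) and 2 called lower (Phlda2 and Capn6). The sequences are those of RefSeq (GRCm38.p6) from 250 bases before to 50 bases after a start of the gene in that table. The start used for Phlda2 lay 626 bases inside the gene as located below, and those of the other 3 genes within 29 bases of the gene's start in the gene annotation. They lie at chr8:43306960-43307259, minus strand (Zfp42), chr12:85473640-85473939, plus strand (Fos), chr7:143502475-143502774, minus strand (Phlda2) and chrX:143827363-143827662, minus strand (Capn6). Capitals mark a match to 1 of 5 motifs searched on both strands, namely the octamer ATGCAAAT, the AP-1 site TGAGTCA, the GATA site AGATAA, the cAMP response element TGACGTCA and the TATA box TATAAA.
Zfp42: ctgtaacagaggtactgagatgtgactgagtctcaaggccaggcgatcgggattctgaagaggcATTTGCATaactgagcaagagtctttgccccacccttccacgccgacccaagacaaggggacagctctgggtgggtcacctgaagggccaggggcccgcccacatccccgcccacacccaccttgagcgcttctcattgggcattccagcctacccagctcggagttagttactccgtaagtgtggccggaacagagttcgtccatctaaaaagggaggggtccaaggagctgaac
Fos: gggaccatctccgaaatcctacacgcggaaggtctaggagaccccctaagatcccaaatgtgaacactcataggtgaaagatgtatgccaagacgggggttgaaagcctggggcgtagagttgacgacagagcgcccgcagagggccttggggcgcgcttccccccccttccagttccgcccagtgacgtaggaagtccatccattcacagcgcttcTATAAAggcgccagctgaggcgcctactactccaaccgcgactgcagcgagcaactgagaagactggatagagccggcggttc
Phlda2: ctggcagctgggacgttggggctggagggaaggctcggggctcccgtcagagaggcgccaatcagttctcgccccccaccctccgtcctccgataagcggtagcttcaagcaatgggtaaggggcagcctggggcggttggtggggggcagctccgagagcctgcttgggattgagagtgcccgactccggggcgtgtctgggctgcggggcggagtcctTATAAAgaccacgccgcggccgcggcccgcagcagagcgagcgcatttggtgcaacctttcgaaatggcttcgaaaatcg
Capn6: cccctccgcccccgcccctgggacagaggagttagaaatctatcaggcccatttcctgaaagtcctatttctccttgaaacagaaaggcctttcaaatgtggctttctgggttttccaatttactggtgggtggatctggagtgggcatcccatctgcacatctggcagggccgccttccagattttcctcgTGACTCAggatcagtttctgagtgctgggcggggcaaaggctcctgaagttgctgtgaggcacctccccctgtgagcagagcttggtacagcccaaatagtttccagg
Zfp42 held an octamer on the opposite strand, first base at -186 from the start, as did 1.75% of 27025 RefSeq promoters of this length. Fos and Phlda2 each held a TATA box, at -33 and -30, as did 14.2% of all promoters. Capn6 held an AP-1 site at -58, as did 5.17% of all promoters. A promoter was at hand for 88 of the 127 genes named by rule, and a match is a description of letters, not of binding.

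After the filters 13097 XEN cells (6942 and 6155) and 7551 day 28 cells (5570 and 1981) remained of 24346 deposited. Their summed depth was 67041113 to 120619088 UMIs per library, and mitochondrial genes held 2.00% and 1.48% of UMIs in XEN and 3.51% and 3.40% at day 28. Any 2 libraries shared 10 to 55 cell barcodes, at most 0.987% of the smaller library, and no doublet caller was run. Sex-linked RNA differed between the conditions, while the labels give a single line. Xist, the RNA that silences an X chromosome in female cells, was at 0.514 and 0.203 CPM (UMIs relative to the library total, scaled by TMM) in XEN and 24.2 and 22.6 CPM at day 28 (log2 fold change 6.02 ± 0.70 SE, edgeR adjusted p = 1.63e-05). The 4 Y-linked genes summed to 36.3 and 27.96 CPM in XEN against 2.21 and 0.114 CPM at day 28. Ddx3y alone had a log2 fold change of -5.15 ± 1.29 (adjusted p = 0.00642), and of -8.86 to -4.27 without 1 library. Neither measure overlapped between the conditions. A change of sex-chromosome content and reprogramming cannot be told apart for any gene below. Of 608 genes tested on the X chromosome 27.5% were called higher and 11.5% lower, beside 21.3% and 8.49% of all genes. Leaving out the genes of both sex chromosomes gave 4813 calls.

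Reprogramming to day 28 came with a broad change of RNA. Of 16903 genes tested, 5043 (29.8%) were called, that is, they had an edgeR adjusted p under 0.05 and at least a 2-fold change, of which 3608 (21.3% of those tested) were higher and 1435 (8.49%) lower at day 28. Genes called higher had a median change of 3.75 on the log2 scale but a median level of only 1.24 CPM at day 28, and 164 of them reached 50 CPM. Genes called lower moved less, by a median size of 1.497 on the log2 scale, from a median of 19.02 CPM in XEN, and 379 of them had been at 50 CPM or more. The libraries of the conditions did not overlap for 5036 of the called genes. As these genes had already passed the test and the 2-fold limit, this count adds no support of its own. Duplicates differed by a log2 ratio with an SD across genes of 0.329 in XEN and 0.289 at day 28. This ratio was taken after adding 1 to each CPM, which makes it smaller for genes of low level. The median log2 fold change of all genes tested was 0.10. The number called higher was 2388 without XEN replicate 1, the number called lower was 947 without day 28 replicate 1, and 2977 genes were called when each cell was first thinned to 2000 UMIs. In such sums fewer cells of a type and less RNA per cell cannot be told apart.

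**Figure D1:**
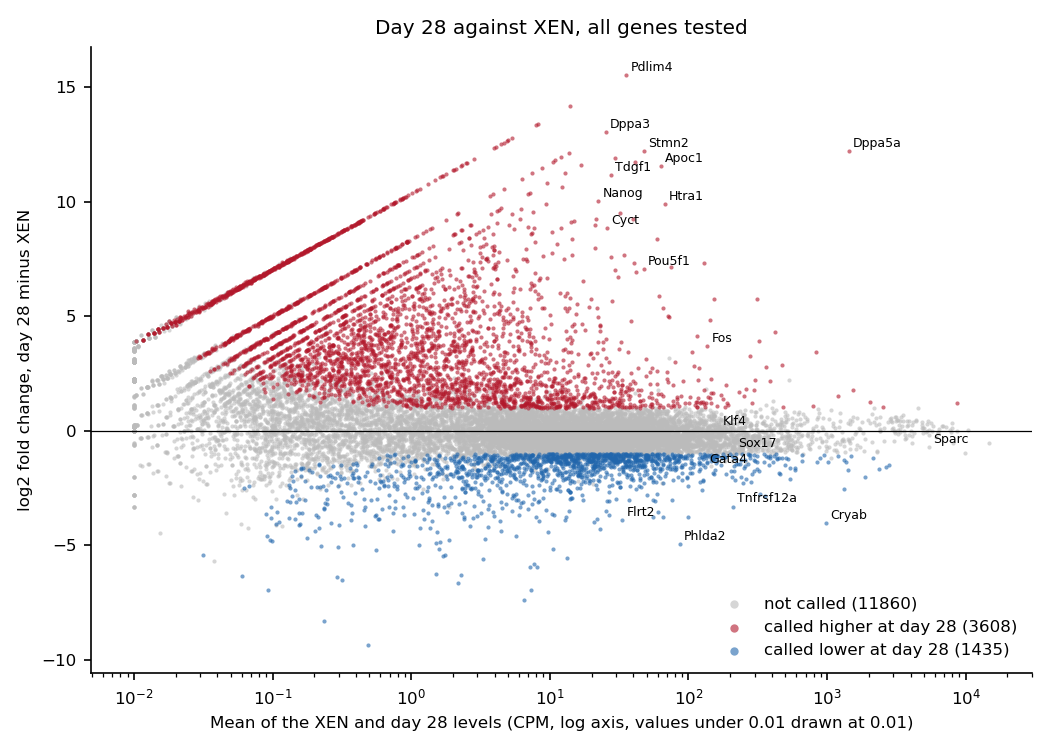
Log2 fold change of day 28 minus XEN (vertical axis) against the mean of the XEN and day 28 levels in CPM (log axis) for the 16903 genes tested, 1 point per gene, red where called higher (3608), blue where called lower (1435) and grey otherwise. The largest rises lie at low mean levels, with Dppa5a (12.23) standing out at a high level, while the falls reach -4.92 (Phlda2) among genes of at least 50 CPM in XEN.

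The largest rises to 50 CPM or more were a mixture of pluripotency, germline and other genes. Genes whose symbol is Gm plus digits were left out of this ranking. Pdlim4, a PDZ and LIM domain protein of the actin cytoskeleton (chromosome 11, 54054928 to 54069014, minus strand, GRCm38), had no UMI in either XEN library and 92.2 and 49.9 CPM at day 28. It was at least 5214-fold higher, the mean level at day 28 against a floor of 3 counts in the summed, TMM-scaled totals of both XEN libraries (adjusted p = 4.92e-07, edgeR). Dppa3 (Stella), which protects DNA methylation in the early embryo (chromosome 6, 122626410 to 122630272, plus strand), had 1 UMI in XEN and 47.7 and 53.97 CPM at day 28. The ratio of its mean level at day 28 to the XEN UMIs over the same totals was 11192 (2008 to 442126), with the 95% counting interval in brackets. Wfdc2, a secreted protein with a protease inhibitor fold, had 3 UMIs in XEN and 62.5 and 55.7 CPM at day 28, a ratio of 4336 (1483 to 21030). All 3 were near or at 0 in both XEN libraries and above 45 CPM in both day 28 libraries.

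Dppa5a, an RNA-binding protein of pluripotent cells (chromosome 9, 78367052 to 78368177, minus strand), stood apart by its level. It was at 0.524 and 0.662 CPM in XEN against 2882 and 2842 CPM at day 28 (log2 fold change 12.23 ± 0.48 SE, adjusted p = 1.34e-09). Closely similar copies of this gene exist in the mouse genome and could share its reads. Stmn2, a regulator of microtubules best known from neurons, was at 0.0281 and 0.00880 CPM in XEN against 76.3 and 113 CPM at day 28 (12.23 ± 1.35). Trh, the thyrotropin-releasing hormone gene, went from 0 and 0.0442 to 77.4 and 88.5 CPM (11.75 ± 1.82). The apolipoprotein gene Apoc1 went from 0 and 0.0795 to 122 and 131 CPM (11.55 ± 0.97). In each of these genes no XEN library came near a day 28 library, which adds no support, as the genes were picked for the size of their rise. With XEN near 0 the size of the change was uncertain. Without 1 library the log2 fold change ran from 10.8 to 15.7 for Trh and from 10.6 to 16.3 for Apoc1. Tdgf1 (Cripto), a co-receptor of Nodal, went from 0.0187 and 0.0265 to 53.2 and 57.9 CPM (11.16 ± 1.91). The serine protease gene Htra1 went from 0.0655 and 0.212 to 156 and 113 CPM (9.89 ± 0.84), the X-linked homeobox gene Rhox9 from 0.103 and 0.150 to 103 and 55.6 CPM (9.27 ± 0.78) and Cyct, the testis form of cytochrome c, from 0.140 and 0.0795 to 43.8 and 58.9 CPM (8.85 ± 0.62). With Sox2, described below, these are the 12 highest, and each kept its call in all 4 runs that lacked a library.

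Among called genes of at least 50 CPM in XEN, the largest fall was that of Phlda2, an imprinted gene that restrains placental growth (chromosome 7, 143501545 to 143503150, minus strand). It was at 121 and 216 CPM in XEN against 5.37 and 5.72 CPM at day 28 (log2 fold change -4.92 ± 0.49 SE, adjusted p = 4.02e-06). Cryab, a small heat shock protein (chromosome 9, 50751325 to 50756636, plus strand), was the most abundant in XEN of the 12 such genes that fell most, at 1565 and 2158.5 CPM in XEN against 97.4 and 129.99 CPM at day 28 (-4.03 ± 0.57, adjusted p = 9.21e-05). Both differed far more between conditions than between duplicates, which adds no support, as the genes were picked for the size of their fall. Its neighbour Hspb2, which overlaps it on the opposite strand, went from 75.1 and 131 to 5.63 and 9.78 CPM, and reads of the pair may be shared, since use of strand in counting is not given in the sources used here. Flrt2, an adhesion protein of the cell surface, fell from 77.03 and 47.3 to 3.45 and 5.03 CPM (-3.88 ± 0.43).

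Genes of proteolysis, signalling and the cytoskeleton followed. Timp2, an inhibitor of matrix metalloproteinases, fell from 157 and 214 to 7.72 and 20.1 CPM (-3.74 ± 0.80). Gnai1, a subunit of inhibitory G proteins, fell from 123 and 97.8 to 9.58 and 9.355 CPM (-3.54 ± 0.39). Tnfrsf12a, the receptor of the cytokine Tweak, fell from 165 and 590.2 to 41.1 and 35.4 CPM (-3.30 ± 0.49), with XEN duplicates far apart but both above day 28. Capn6, a calpain without protease activity, fell from 111 and 95.7 to 9.63 and 15.25 CPM (-3.05 ± 0.49). Pea15a, an adaptor that binds Erk, had a log2 fold change of -3.04 ± 0.45, the growth factor gene Nrg1 -3.03 ± 0.42 and the actin crosslinker gene Flna -3.00 ± 0.45. Ankrd1, a target of the Yap pathway, varied most between duplicates of these genes, at 44.7 and 201 CPM in XEN against 3.59 and 14.6 CPM at day 28 (-3.76 ± 1.22, adjusted p = 0.0251). Its adjusted p was 0.193 without XEN replicate 2 and 0.165 without day 28 replicate 1, and the other 11 stayed called without each library.

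**Figure D2:**
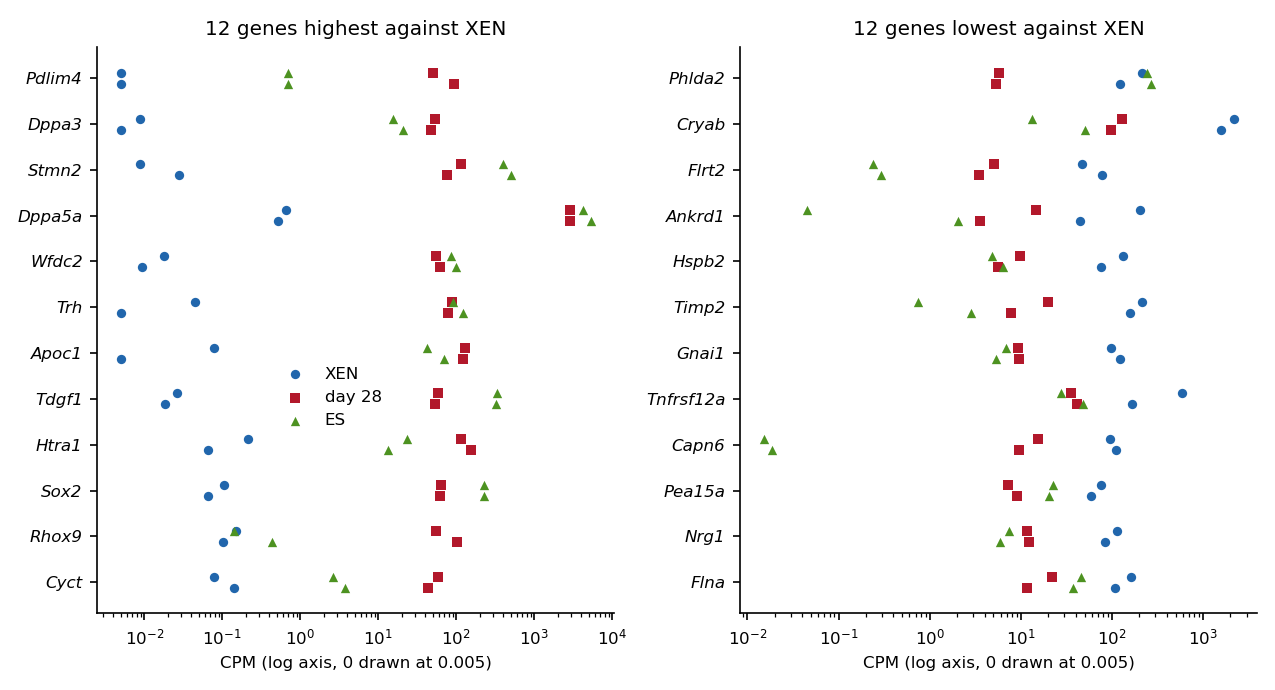
Level in CPM (log axis) of the 12 genes with the largest rise and the 12 with the largest fall among called genes of at least 50 CPM in the higher condition, 1 point per library of XEN, day 28 and ES, with 0 drawn at a fixed low value. Genes whose symbol is Gm plus digits were left out. XEN and day 28 do not overlap for any of the 24 genes, which adds no support, as they were picked for the size of their called change. ES lies far from day 28 for Pdlim4 (0.7005 and 0.690 CPM) and Phlda2 (269 and 244 CPM).

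Pluripotency genes were mostly higher. The gene lists from here on were written with earlier results of these data known, so their shares beside those of all genes are descriptive. Of 28 members 17 were called higher and 2 lower (60.7% and 7.14%, beside 21.3% and 8.49% of all genes), with a median log2 fold change of 5.84 beside 0.10 for all genes, and 16 were higher in each run without 1 library. Their summed level was 861 and 732 CPM in XEN, then 1548 and 1677 CPM by day 28 and 4611 and 4335 CPM in ES. Pou5f1 was at 0.636 and 0.751 CPM in XEN against 82.5 and 106 CPM at day 28 (7.08 ± 0.87, adjusted p = 2.74e-05), in libraries sorted in part by its reporter. Sox2 was at 0.0655 and 0.106 CPM in XEN against 62.7 and 64.6 CPM at day 28 (9.50 ± 1.11, adjusted p = 1.75e-05). Klf4 was at 171 and 149.96 CPM in XEN against 154 and 181 CPM at day 28, with overlapping libraries (0.06 ± 0.26, adjusted p = 0.875). RNA of the cassette and of the endogenous gene is not separable in these counts for any of the 3.

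Genes outside the cassette rose as well. Nanog, a core factor of the pluripotent state, went from 0 and 0.0795 to 43.7 and 45.75 CPM (10.05 ± 1.17, adjusted p = 1.72e-05). With XEN near 0, its log2 fold change ran from 9.06 to 14.8 without 1 library. Zfp42 (Rex1), a zinc finger marker of naive ES cells whose promoter is shown above, went from 1.85 and 1.34 to 245 and 272 CPM (7.34 ± 0.65). Esrrb, an orphan nuclear receptor, had 2 UMIs in XEN and 17.97 and 20.1 CPM at day 28, a ratio of 2096 (580 to 17313). For these 3 genes the gap between the duplicates was far smaller than that to XEN. The ligand gene Fgf4 reached 6.16 and 11.1 CPM and Gdf3, a ligand of the Nodal family, 27.5 and 27.7 CPM, from 2 and 1 UMIs. Utf1, a chromatin factor of ES cells, went from 2.78 and 3.44 to 135 and 120.3 CPM (5.36 ± 0.78). Tcl1, a co-activator of the kinase Akt, had no UMI in XEN and 26.5 and 29.8 CPM at day 28, at least 2067-fold higher. Crxos, a divergent homeobox gene, went from 2 UMIs to 35.99 and 30.9 CPM, a ratio of 3682 (1019 to 30413).

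The 2 members called lower, named after their values were seen, were Sall4 and Lin28a. Sall4, a zinc finger factor, went from 198 and 180.05 to 72.2 and 62.4 CPM (-1.49 ± 0.23), against 168 and 197 CPM in ES. Lin28a, an RNA-binding protein that blocks let-7, went from 67.7 and 56.2 to 10.98 and 18.2 CPM (-2.09 ± 0.31), against 70.5 and 82.8 CPM in ES. For both genes XEN and ES were closer to each other than either was to day 28.

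Germline genes, also listed with earlier results of these data known, were higher almost throughout. Of 25 members 24 were called higher and none lower, beside 21.3% higher of all genes, and 24 were called without each of the 4 libraries. Their median log2 fold change was 7.19, or 7.11 with the member that lacked a UMI in XEN set at its bound. Dppa3, Dppa5a and Rhox9 are given above. Dazl, an RNA-binding protein of germ cells named after its values were seen, went from 0.112 and 0.0442 to 27.1 and 18.04 CPM (8.16 ± 1.20) and was at 1.24 and 1.38 CPM in ES. The member not called was Rhox5, at 103 and 251 CPM in XEN against 359 and 304 CPM at day 28 (0.90 ± 0.86, adjusted p = 0.429). The list summed to 123 and 274 CPM in XEN against 3751 and 3508 CPM at day 28, of which most was Dppa5a.

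Of 12 enzymes and readers of DNA methylation 4 were called higher and 1 lower (33.3% and 8.33%, beside 21.3% and 8.49% of all genes). Dnmt3l, the inactive partner of the de novo methyltransferases, went from 0.514 and 0.848 to 24.5 and 27.3 CPM (5.24 ± 0.79, adjusted p = 1.46e-04). The methyltransferase gene Dnmt3a went from 9.27 and 5.55 to 20.00 and 17.9 CPM (1.36 ± 0.28), while Dnmt3b was at 66.1 and 38.97 CPM in XEN against 50.7 and 47.2 CPM at day 28 (-0.10 ± 0.37, adjusted p = 0.849). Of the 3 genes of Tet dioxygenases, which oxidise the mark, 2 were called higher. Tet1 went from 10.4 and 5.53 to 28.4 and 29.4 CPM (1.86 ± 0.46), with an adjusted p of 0.0704 without XEN replicate 2, and Tet2 from 1.53 and 1.52 to 7.33 and 8.10 CPM (2.34 ± 0.33). Tet3 was at 39.4 and 33.6 CPM in XEN against 18.7 and 20.02 CPM at day 28, and its difference of -0.91 ± 0.21 was under the 2-fold limit (adjusted p = 0.00328). Mbd3, a subunit of the NuRD complex, went from 218 and 187 to 95.1 and 85.3 CPM (-1.17 ± 0.30), with an adjusted p of 0.0589 without day 28 replicate 2. Of 12 genes of formative and primed pluripotency, the states of the later epiblast, 7 were called higher (58.3%, beside 21.3% of all genes) and none lower, at a summed level of 73.2 and 51.3 CPM in XEN against 91.5 and 78.2 CPM at day 28.

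**Figure D3:**
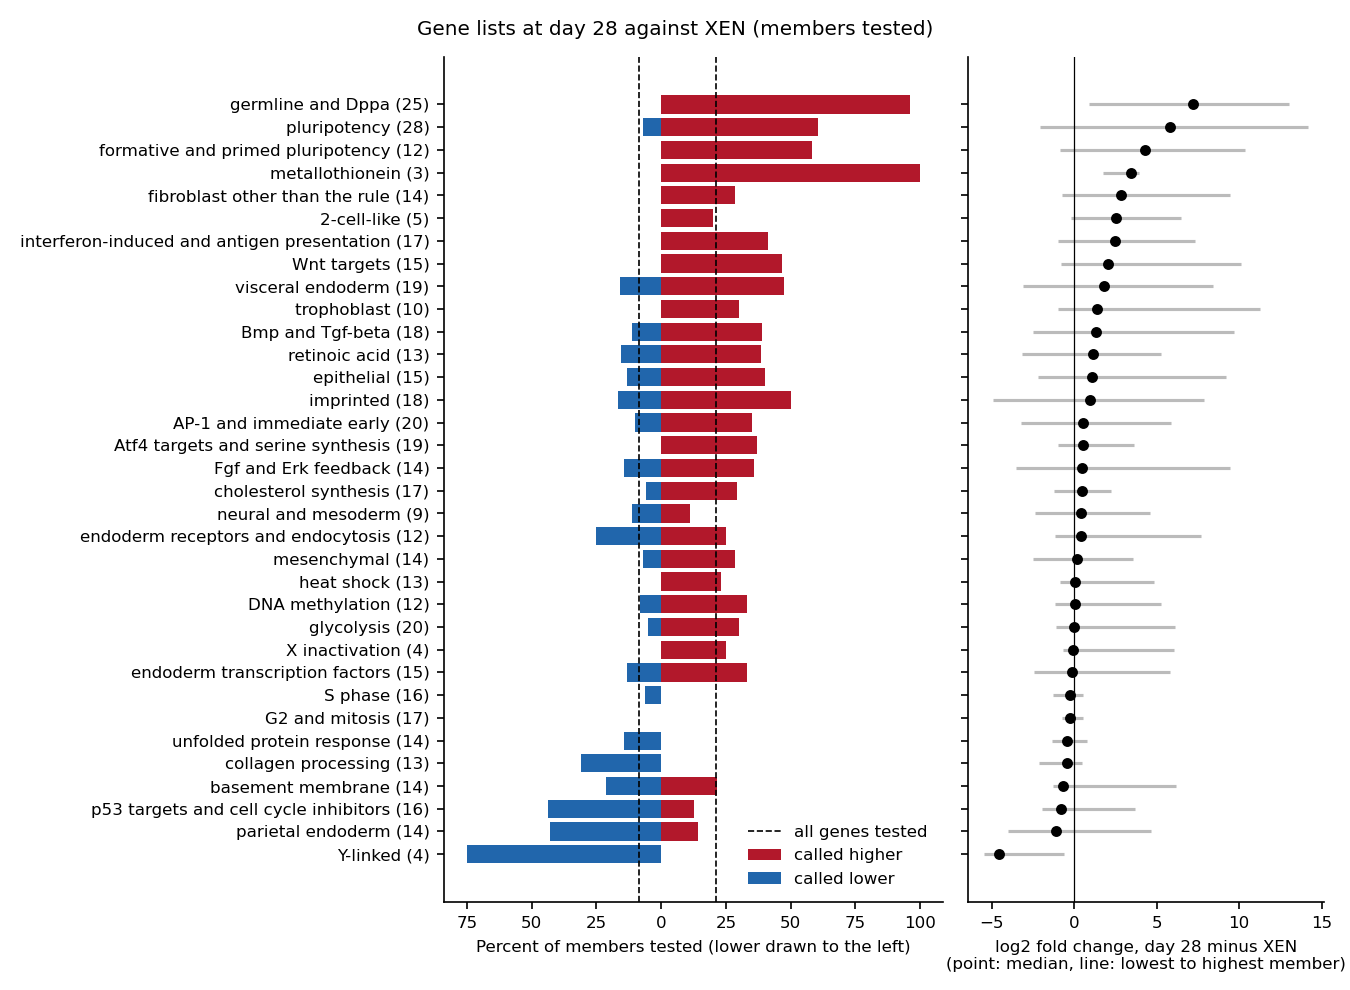
Left, percent of the tested members of 34 gene lists called higher (red, to the right) and lower (blue, to the left), with the number tested in brackets and dashed lines at 21.3% and 8.49% for all genes. Right, the median log2 fold change of each list (point) and its lowest to highest member (line), with germline genes (median 7.19) at the top and Y-linked genes (-4.55) at the bottom.

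Endoderm transcription factors had a median log2 fold change of -0.14, with 2 of 15 called lower and 5 higher (13.3% and 33.3%, beside 8.49% lower and 21.3% higher of all genes). The list summed to 1278 and 1149 CPM in XEN, then 855 and 750.4 CPM by day 28 and 44.3 and 50.7 CPM in ES. Sox7 fell from 96.7 and 57.9 to 17.5 and 10.5 CPM (-2.46 ± 0.57, adjusted p = 0.00347) and stayed called without each library. Gata4 was at 198 and 193 CPM in XEN against 69.5 and 62.8 CPM at day 28 (-1.57 ± 0.59, adjusted p = 0.0468). Leaving out any 1 of the 4 libraries ended this call, with log2 fold changes of -1.64 to -1.51. The 4 libraries fitted alone gave Gata4 an adjusted p of 7.91e-04 (edgeR). Of the members called higher, 3 were left without XEN replicate 1.

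Gata6 and Sox17 did not pass the test. Gata6 was at 298 and 223 CPM in XEN against 99.9 and 112 CPM at day 28 (-1.30 ± 0.76, adjusted p = 0.190). Sox17 was at 283 and 273 CPM in XEN against 151 and 146 CPM at day 28 (-0.90 ± 0.85, adjusted p = 0.421). For both genes the conditions did not overlap, and the spread in the test was drawn from all 20 libraries. With the 4 libraries alone Gata6 was called (adjusted p = 0.00276). Foxa2, a pioneer factor of endoderm, was at 71.7 and 62.99 CPM in XEN against 67.8 and 58.1 CPM at day 28, with overlapping libraries (-0.10 ± 0.79). The members called higher were Elf3, Runx1 and, named after their values were seen, Prdm1, Gata5 and Hhex. Elf3, an epithelial Ets factor, went from 5.04 and 4.75 to 68.4 and 47.7 CPM (3.57 ± 0.42) and Runx1, best known from blood, from 5.62 and 13.1 to 59.5 and 38.99 CPM (2.39 ± 0.51).

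Of 12 genes of endoderm receptors and endocytosis 3 were called higher and 3 lower, that is 25% each, beside 21.3% higher and 8.49% lower of all genes. Without XEN replicate 1 the counts were 1 and 1, and without XEN replicate 2 1 and 3. Pdgfra, the receptor by which primitive endoderm is often recognised, was at 123 and 72.2 CPM in XEN against 50.6 and 41.5 CPM at day 28 (-1.08 ± 0.35, adjusted p = 0.0228). Its adjusted p was 0.216, 0.0643 and 0.141 without XEN replicate 1, day 28 replicate 1 and day 28 replicate 2. Lifr, the receptor of LIF, fell from 127 and 123 to 51.6 and 60.4 CPM (-1.16 ± 0.26). Amn, the membrane anchor of cubilin, went from 0.140 and 0.141 to 46.98 and 10.8 CPM (7.67 ± 1.04), with day 28 duplicates well apart. The endocytic adaptor gene Dab2 was at 259 and 171 CPM in XEN against 163 and 123 CPM at day 28 (-0.59 ± 0.43, adjusted p = 0.292).

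Basement membrane genes summed to 15504 and 13691 CPM in XEN, then 7626 and 8113.5 CPM by day 28 and 399 and 461 CPM in ES, and 3 of 14 were called lower and 3 higher, beside 8.49% lower and 21.3% higher of all genes. Col4a1, a chain of type IV collagen, was at 3464 and 2486 CPM in XEN against 1314 and 1319.6 CPM at day 28 (-1.18 ± 0.39, adjusted p = 0.0255). Its partner Col4a2 had a log2 fold change of -1.26 ± 0.41 and the laminin chain gene Lamc1 -1.18 ± 0.31. No member was called lower without XEN replicate 1 (adjusted p 0.139, 0.131 and 0.0591 for the 3 genes) or without day 28 replicate 1 (0.109, 0.132 and 0.0874). Without day 28 replicate 2 the calls of Col4a1 (0.104) and Col4a2 (0.0855) were lost. Sparc, a collagen-binding glycoprotein, was at 6432 and 7028 CPM in XEN against 4095 and 4085 CPM at day 28 (-0.72 ± 0.32, adjusted p = 0.0872), and the laminin chain gene Lama1 at 855 and 685 against 402 and 491 CPM (-0.79 ± 0.77, adjusted p = 0.445). The conditions did not overlap for Lama1, and the spread in its test was drawn from all 20 libraries, with XEN-iPS at 24.1 and 0.901 CPM. The members called higher were Fbln1 and, named after their values were seen, Col18a1 and Agrn, of which Fbln1 was highest at 23.3 and 25.3 CPM.

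Of 13 collagen processing genes 4 were called lower (30.8%, beside 8.49% of all genes) and none higher, with 2 lower without XEN replicate 1. P4ha1, a prolyl hydroxylase subunit, fell from 374 and 331 to 89.6 and 70.4 CPM (-2.14 ± 0.26, adjusted p = 2.48e-05). Plod2, a lysyl hydroxylase, fell from 545 and 376 to 164 and 111 CPM (-1.74 ± 0.30), and both stayed called without each library. Tram2, a translocon component, had a log2 fold change of -1.15 ± 0.28 and an adjusted p of 0.0662 without XEN replicate 1. Serpinh1, the collagen chaperone, was at 1719 and 1222 CPM in XEN against 1156 and 994 CPM at day 28 (-0.45 ± 0.32, adjusted p = 0.277).

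Parietal endoderm genes had 6 of 14 called lower and 2 higher (42.9% and 14.3%, beside 8.49% lower and 21.3% higher of all genes), with a median of -1.08 on the log2 scale and 3 lower without day 28 replicate 1. Cryab led the falls. Nog, a Bmp antagonist, was at 51.6 and 49.7 CPM in XEN against 6.50 and 14.9 CPM at day 28 (-2.25 ± 0.73). It was not called without XEN replicate 1, XEN replicate 2 or day 28 replicate 1. Its log2 fold change without 1 library ran from -2.98 to -1.77. With only the XEN and day 28 libraries in the fit its adjusted p was 0.00236 (edgeR). Krt19, a keratin of simple epithelia, rose from 1.10 and 2.46 to 63.5 and 25.2 CPM (4.64 ± 0.76). Of 19 visceral endoderm genes 9 were called higher and 3 lower (47.4% and 15.8%, beside 21.3% and 8.49% of all genes), with 0, 1 and 1 lower without XEN replicate 2, day 28 replicate 1 and day 28 replicate 2. The list summed to 1210 and 1111 CPM in XEN against 1439 and 1098 CPM at day 28. Apoe, a lipid carrier made by many cell types, rose from 9.70 and 13.3 to 663 and 566 CPM (5.74 ± 0.50, adjusted p = 1.16e-06, edgeR), and Apoa2 from 5.82 and 5.93 to 30.6 and 28.2 CPM (2.32 ± 0.48). Both were also present in ES, Apoe at 521 and 530 CPM and Apoa2 at 56.7 and 52.0 CPM. Named after their values were seen, Afp (-3.10) and Rbp4 (-2.28) were called lower, and Ttr (1.83) was not called. Spink1, a trypsin inhibitor, was at 739.7 and 517 CPM in XEN against 82.4 and 92.3 CPM at day 28 (-2.85 ± 1.03, adjusted p = 0.0393). It was not called without any 1 of the 4 libraries (log2 fold changes -3.08 to -2.61). The 4 libraries fitted alone gave it an adjusted p of 1.99e-04 (edgeR).

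Immediate early genes, whose RNA appears quickly after growth factors or dissociation, had 7 of 20 members called higher and 2 lower (35% and 10%, beside 21.3% and 8.49% of all genes). Egr1 rose from 0.907 and 3.15 to 141 and 98.3 CPM (5.88 ± 0.99, adjusted p = 3.53e-04) and Ier2 from 35.5 and 45.9 to 211 and 174 CPM (2.24 ± 0.40). Fos was at 17.3 and 21.9 CPM in XEN, then 289 and 217 CPM by day 28 and 2.25 and 30.5 CPM in ES (3.69 ± 1.29, adjusted p = 0.0342). Jun was at 66.4 and 83.4 CPM in XEN against 348 and 254 CPM at day 28 (2.01 ± 0.62, adjusted p = 0.0187). Fitted with the 4 libraries alone, the adjusted p was 9.38e-05 for Fos and 8.62e-04 for Jun (edgeR). Fos was not called without any 1 library (adjusted p 0.0658 to 0.171), and Jun not without XEN replicate 1 (0.128), XEN replicate 2 (0.0703) or day 28 replicate 1 (0.0881). The list had 4 members higher without day 28 replicate 1 and none lower without XEN replicate 2. Atf3 overlapped between the conditions, at 107 and 206 CPM in XEN against 142 and 132 CPM at day 28. Day 28 cells were sorted and dissociated with more concentrated trypsin, and the part of this in these genes was not tested.

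Of 13 heat shock genes 3 were higher (23.1%, beside 21.3% of all genes), led by Hspb1, a small heat shock protein, at 4.73 and 14.7 CPM in XEN against 242 and 311 CPM at day 28 (4.83 ± 0.54). Hspa8, a constitutive chaperone, went from 493 and 522 to 1089 and 1064 CPM (1.09 ± 0.31) but was not called without any 1 library (adjusted p 0.0537 to 0.0935). Of 14 genes of the unfolded protein response 2 were lower (14.3%, beside 8.49% of all genes), the chaperone gene Calr (-1.36 ± 0.32) and Manf (-1.36 ± 0.34), and neither was called without day 28 replicate 2 (adjusted p 0.0507 and 0.0663). Of 19 targets of Atf4, the factor of the amino acid response, 7 were higher (36.8%, beside 21.3% of all genes), and 4 without XEN replicate 1 and without day 28 replicate 2. Asns, which makes asparagine, rose from 38.2 and 26.98 to 131 and 169 CPM (2.20 ± 0.28), while Atf4 itself overlapped at 181 and 188 against 181 and 241 CPM. All 3 metallothionein genes, which bind metals, were called higher, but only 1 without XEN replicate 1. Mt2 rose from 56.8 and 223 to 1101 and 1938 CPM (3.44 ± 0.73), and Mt1 had adjusted p of 0.258, 0.0778 and 0.115 without XEN replicate 1, day 28 replicate 1 and day 28 replicate 2.

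Signalling genes moved in both directions. Of 15 Wnt targets 7 were called higher (46.7%, beside 21.3% of all genes, and 4 members without XEN replicate 1) and none lower, at a summed level of 38.7 and 51.3 CPM in XEN against 97.1 and 65.6 CPM at day 28. The cyclin gene Ccnd1 was at 3.47 and 6.62 CPM in XEN against 24.4 and 18.1 CPM at day 28 (2.08 ± 0.74). It was not called without any 1 library (log2 fold changes 1.64 to 2.61). Its adjusted p with only the XEN and day 28 libraries in the fit was 0.00261 (edgeR). Of 14 Fgf genes 5 were higher (3 without XEN replicate 1) and 2 lower (35.7% and 14.3%, beside 21.3% and 8.49% of all genes). Etv5, a factor induced by Fgf, rose from 3.60 and 5.47 to 27.5 and 38.7 CPM (2.87 ± 0.42), while the ligand gene Fgf3 fell from 55.2 and 39.00 to 4.95 and 3.35 CPM (-3.50 ± 0.78). Dusp4, a phosphatase that limits Erk, had a log2 fold change of -1.80 ± 0.39 and an adjusted p of 0.0612 without XEN replicate 2. Of 18 Bmp and Tgf-beta genes 7 were higher and 2 lower (38.9% and 11.1%, beside 21.3% and 8.49% of all genes). The Bmp targets Id2 and Id3 differed in sign, with Id2 falling from 88.04 and 61.7 to 22.1 and 22.4 CPM (-1.75 ± 0.30) and Id3 rising from 10.9 and 22.5 to 58.9 and 48.1 CPM (1.68 ± 0.41, adjusted p 0.0836 without XEN replicate 1). Of 13 retinoic acid genes 5 were higher, 3 without XEN replicate 1 and without day 28 replicate 2, and 2 lower (38.5% and 15.4%, beside 21.3% and 8.49% of all genes), among them Rdh10, which makes retinal (31.7 and 41.97 to 8.44 and 7.63 CPM, -2.20 ± 0.26).

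Targets of p53 and cell cycle inhibitors had 7 of 16 called lower, beside 8.49% of all genes, and 2 higher (12.5%, beside 21.3% of all genes). Cdkn1a (p21), which halts the cycle in G1, fell from 344 and 561 to 136 and 107 CPM (-1.90 ± 0.32, adjusted p = 3.19e-04). Mdm2, which degrades p53, fell from 89.2 and 122 to 33.6 and 38.4 CPM (-1.55 ± 0.20), and Phlda3, an inhibitor of Akt, from 242 and 346 to 78.9 and 81.4 CPM (-1.87 ± 0.24). These 3 stayed called without each library. Cdkn2a, the gene of p16 and p19Arf, was at 108 and 141 CPM in XEN against 76.2 and 65.6 CPM at day 28 (-0.81 ± 0.35, adjusted p = 0.0762). Of 16 S phase genes 1 was called lower (6.25%, beside 8.49% of all genes). It was Ccne2 (-1.31 ± 0.41), which was not called without XEN replicate 1 or day 28 replicate 2. Its log2 fold change without 1 library ran from -1.76 to -0.88. Among 17 genes of G2 and mitosis none was called by edgeR or DESeq2, beside 21.3% higher and 8.49% lower of all genes by edgeR. At an unadjusted edgeR p under 0.05, 1 of these 17 was higher and 3 were lower, and without XEN replicate 2 1 was called lower. In the germline, formative and Wnt lists no member was lower at an unadjusted p under 0.05, and DESeq2 called none lower.

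In metabolism 6 of 20 glycolysis genes were called higher and 1 lower (30% and 5%, beside 21.3% and 8.49% of all genes). The lactate dehydrogenase gene Ldhb rose from 24.6 and 29.4 to 193 and 189 CPM (2.82 ± 0.40, adjusted p = 9.39e-05). Gapdh went from 1397 and 1911 to 3930.3 and 2878 CPM (1.04 ± 0.28), with adjusted p of 0.111 without XEN replicate 1 and 0.0886 without day 28 replicate 1. The glucose transporter gene Slc2a3 went from 345 and 631 to 219 and 243 CPM (-1.08 ± 0.30), with adjusted p of 0.183, 0.0782 and 0.0531 without XEN replicate 2, day 28 replicate 1 and day 28 replicate 2. Of 17 genes of cholesterol synthesis 5 were higher and 1 lower (29.4% and 5.88%, beside 21.3% and 8.49% of all genes). Fewer were higher without XEN replicate 1, XEN replicate 2 or day 28 replicate 1. Fdps, which makes farnesyl pyrophosphate, had a log2 fold change of 2.21 ± 0.58 and adjusted p of 0.0653 and 0.0518 without XEN replicate 2 and day 28 replicate 1.

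Of 17 genes of the interferon response and antigen presentation 7 were called higher (41.2%, beside 21.3% of all genes) and none lower. Ifitm3, a membrane protein that blocks viral entry and is also made by primordial germ cells, rose from 1.02 and 1.08 to 164 and 133 CPM (7.14 ± 0.57, adjusted p = 5.92e-07). Its paralogs Ifitm1 and Ifitm2 had log2 fold changes of 7.35 ± 1.16 and 4.15 ± 0.45, and reads of the 3 similar genes may be split. B2m, the light chain of class I antigen presentation, was at 209 and 451 CPM in XEN against 486 and 468 CPM at day 28 (adjusted p = 0.401). Of 15 epithelial genes 6 were higher and 2 lower (40% and 13.3%, beside 21.3% and 8.49% of all genes), with Cdh1 (E-cadherin) rising from 4.05 and 6.05 to 46.9 and 45.02 CPM (3.19 ± 0.35) and the tight junction gene Cldn6 falling from 114 and 306 to 51.96 and 40.6 CPM (-2.18 ± 0.40). Of 14 mesenchymal genes 4 were higher (1 without XEN replicate 1, 2 without either day 28 library) and 1 lower (28.6% and 7.14%, beside 21.3% and 8.49% of all genes), with Fn1 (fibronectin) rising from 5.00 and 6.80 to 38.03 and 57.9 CPM (3.02 ± 0.68).

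Imprinted genes had 9 of 18 members called higher (5 without XEN replicate 1) and 3 lower (50% and 16.7%, beside 21.3% and 8.49% of all genes). H19, a long RNA expressed from the maternal copy, rose from 0.804 and 0.3975 to 30.8 and 19.5 CPM (5.39 ± 0.88, adjusted p = 2.70e-04), and Snrpn, expressed from the paternal copy, from 21.7 and 24.5 to 84.1 and 107 CPM (2.04 ± 0.30). Peg3, a zinc finger gene expressed from the paternal copy, fell from 179 and 169 to 76.96 and 49.6 CPM (-1.46 ± 0.27), as did Phlda2, which is expressed from the maternal copy.

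Markers of other cell types were low. Fibroblast markers that the filter did not use summed to 4.24 and 4.88 CPM in XEN against 18.4 and 11.3 CPM at day 28, with 4 of 14 called higher (28.6%, beside 21.3% of all genes, and 2 members without XEN replicate 1, XEN replicate 2 or day 28 replicate 1). Mmp2, a matrix protease, was at 11.4 and 5.45 CPM at day 28, and Postn, Lum, Thy1, Mgp and Col5a2 had no UMI in XEN. Keeping the cells with collagen gave 4697 calls. Trophoblast markers summed to 38.1 and 42.5 CPM in XEN against 40.4 and 52.4 CPM at day 28 (3 of 10 higher, beside 21.3% of all genes). Neural and mesoderm markers summed to 19.4 and 21.9 against 14.2 and 11.5 CPM (1 higher and 1 lower of 9, beside 21.3% and 8.49% of all genes). Markers of 2-cell-like cells summed to 0.0374 and 0.0707 against 0.0810 and 0.797 CPM (1 of 5 higher, beside 21.3% of all genes). That last call was lost in most runs without 1 library. The part of such cells in the results was not tested.

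ES cells, another line (iGata4-Gata6-Venus ES) with the genotype Col1A1TetO-Gata4/+; R26M2rtTA/+; Gata6H2B-Venus/+, were set beside day 28 for level, with no test. The mean level at day 28 was 17.1% of the ES mean for Tdgf1, 19.2% for Pou5f1, 27.9% for Sox2, 33.1% for Esrrb, 37.6% for Zfp42, 57.6% for Nanog and 60.3% for Dppa5a. Dppa3 was above it, at 277%. Some genes called higher were low in ES, where Pdlim4 was at 0.7005 and 0.690 CPM, Rhox9 at 0.433 and 0.1425 CPM, Crxos at 0.1475 and 0.0675 CPM and H19 at 0.00920 and 0.0150 CPM. Of the 164 genes called higher at 50 CPM or more, 41 had a lower mean in ES than in XEN, and so also lay above ES. Among the rest, a further 77 lay above the ES mean. The median level at day 28 of all 164 was 165% of the ES mean. Of the 379 called lower from 50 CPM or more, 24 had a higher mean in ES than in XEN, Phlda2 among them at 269 and 244 CPM.

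At the earlier time points Dppa5a was at 205 and 406 CPM on day 7 and 665.5 and 634 CPM on day 14. Sox2 was at 0.0448 and 0.269 CPM on day 7 and 2.48 and 0.502 CPM on day 14, far below its level on day 28. Pou5f1 was at 2.175 and 15.5 and then 14.3 and 24.5 CPM. Phlda2 was already at 5.695 and 5.295 CPM on day 7, near its level on day 28, whereas Sox17 was at 117 and 262 CPM on day 7 and 179 and 258 CPM on day 14, with duplicates further apart than on day 28. Xist was at 4.17 and 8.62 CPM on day 7 and 7.48 and 11.98 CPM on day 14, and Y-linked RNA at 6.77 and 15.2 CPM and then 7.68 and 1.78 CPM.

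**Figure D4:**
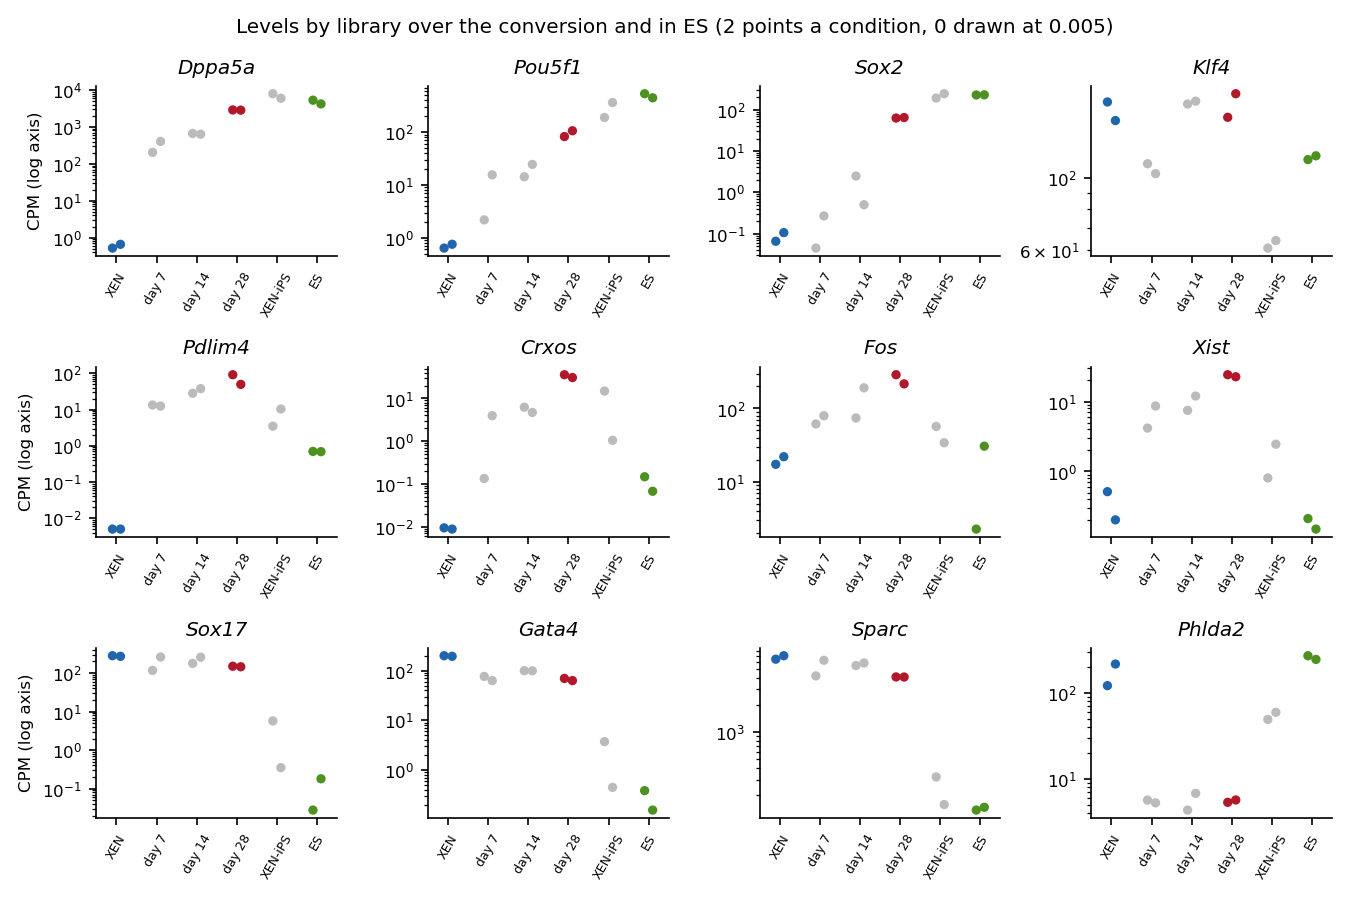
Level in CPM (log axes) of 12 genes in XEN, on day 7, day 14 and day 28, in XEN-iPS and in ES, 1 point per library and 2 per condition, with 0 drawn at a fixed low value. Dppa5a is higher at each time point than at the one before, Sox2 is at 62.7 and 64.6 CPM on day 28 after at most 2.48 CPM, Phlda2 is low from day 7 to day 28, and Pdlim4, Crxos and Fos are higher on day 28 than in ES.

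Single cells showed how widely these RNAs were spread. Each cell was thinned to 2000 UMIs, which kept 6708 and 5796 XEN cells and 5301 and 1896 day 28 cells, with median depths before thinning of 15290.5 and 19749 against 18475 and 30713 UMIs. Exact 95% binomial (Clopper-Pearson) intervals cover counting error only. Dppa5a was detected in 69.65% and 64.6% of day 28 cells (68.4 to 70.9 and 62.4 to 66.8) and in 0.0745% and 0.155% of XEN cells. Without thinning these shares were 89.6% and 92.5% against 0.735% and 1.04%. Pou5f1 was detected in 12.1% and 13.2% of day 28 cells (41.8% and 47.65% unthinned), Sox2 in 6.32% and 7.015% (18.2% and 24.99%) and Nanog in 4.905% and 5.85% (17.2% and 23.02%), each against at most 0.207% of thinned XEN cells. Dppa5a was thus detected in more day 28 cells than any of these 3 factors, at a level that was also higher in the sums.

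The basement membrane genes Col4a1 and Sparc, abundant in the summed counts, had a UMI in most day 28 cells. Col4a1 was detected in 92.9% and 86.2% of XEN cells and 74.9% and 69.1% of day 28 cells (unthinned 94.4% and 90.5% against 89.98% and 87.5%), and Sparc in 98.4% and 97.5% against 87.8% and 83.8% (97.6% and 96.65% against 98.4% and 97.6%). Gata6 was detected in 42.04% and 32.8% of XEN cells and 19.2% and 22.5% of day 28 cells (88.5% and 81.4% against 64.2% and 69.8%). Phlda2 and Cryab were far less widely found at day 28, Phlda2 in 17.25% and 24.9% of XEN and 0.547% and 0.844% of day 28 cells (49.7% and 65.15% against 4.79% and 7.02%) and Cryab in 88.9% and 92.1% against 15.2% and 21.4% (98.9% and 98.75% against 47.5% and 62.9%). Thinned XEN cells held a median of 29 and 23 UMIs of the basement membrane list and day 28 cells 16 and 18. No background share was taken for these endoderm genes, and the part of free RNA in their shares was not tested.

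**Figure D5:**
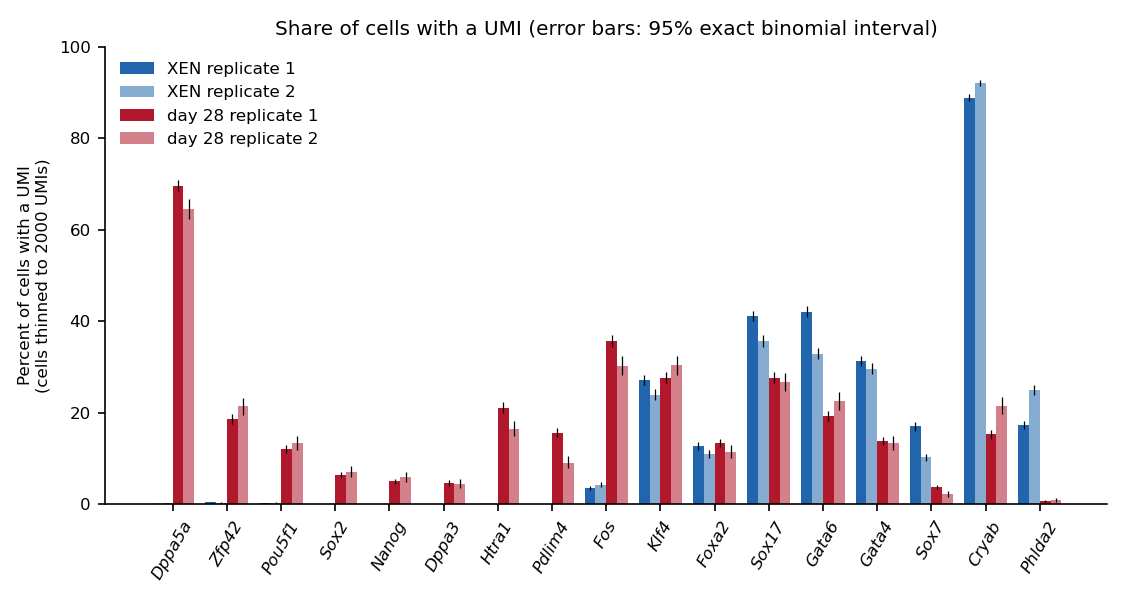
Percent of cells with at least 1 UMI of each of 17 genes after thinning to 2000 UMIs, 1 bar per library (XEN and day 28, 2 each), with exact 95% binomial intervals for counting error. Dppa5a stands at 69.65% and 64.6% at day 28 and near 0 in XEN, Klf4 (27.1% and 23.9% against 27.6% and 30.3%) and Foxa2 (12.7% and 10.9% against 13.3% and 11.4%) have bars of similar height in all libraries, and the bars of Cryab (88.9% and 92.1% against 15.2% and 21.4%) and Phlda2 (17.25% and 24.9% against 0.547% and 0.844%) are lower at day 28 than in XEN.

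Pluripotency RNA was also looked at in day 28 cells rich in endoderm RNA, those with at least 20 of 2000 UMIs from the basement membrane list (2150 and 849 cells, median depth 16158.5 and 28551 UMIs against 20918 and 35139 in the rest). These cells were chosen after the data were seen. In these cells Sox2 was detected in 0.233% and 0.353%, Nanog in 0.326% and 0.707% and Pou5f1 in 5.30% and 5.065%, below their shares over all day 28 cells. Dppa5a was detected in 57.3% and 46.8%, Htra1 in 23.3% and 18.5% and Pdlim4 in 15.95% and 9.78% of these cells. In all day 28 cells Htra1 was detected in 21.1% and 16.4% (unthinned 50.95% and 49.4%) and Pdlim4 in 15.5% and 9.02% (unthinned 46.1% and 35.5%). These cells are part of all day 28 cells and may express the genes themselves, so that their shares do not measure free RNA. Day 28 held only 7 cells with 100 or more collagen UMIs, and the part of free RNA in these shares was not tested.

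Day 28 cells with a Dppa5a UMI (3692 and 1225) held a median of 7 and 7 of its UMIs. Sox2 was detected in 8.83% and 10.45% of them and in 0.559% and 0.745% of cells without Dppa5a, and Pou5f1 in 16.6% and 19.6% against 1.62% and 1.64%. Htra1 was detected in 28.25% and 23.3% of cells with Dppa5a and 4.66% and 3.875% of those without. Fos and Sox17 went the other way, Fos with 32.8% and 24.98% in cells with Dppa5a and 42.4% and 39.6% in those without, and Sox17 with 23.7% and 20.2% against 36.4% and 38.15%. Cells with Dppa5a held a median of 14 and 13 UMIs of the basement membrane list and cells without it 21 and 27, at median depths of 19677 and 33782 against 15853 and 26650 UMIs. The part of depth, free RNA and doublets in these shares was not tested.

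A Y-linked UMI was found in 497 and 337 thinned XEN cells (7.41 and 5.81 percent) and 30 and 1 day 28 cells (0.566 and 0.0527 percent). Xist was found in 8 and 2 XEN cells and 262 and 94 day 28 cells (4.94 and 4.96 percent), and both were found in a single day 28 cell. Within day 28 Xist was detected in 5.66% and 6.04% of cells with Dppa5a and 3.29% and 2.98% of those without.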

How the data were processed

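Libraries were made with the 10x Genomics Chromium 3' v2 kit. The authors processed them with SEQC on the mouse genome (mm10 in the submitters' processing notes), removed cells rich in mitochondrial RNA, and deposited whole UMI counts per gene and cell, 1 table per library. Counts were summed over kept cells per library. The gene symbols were placed with GENCODE vM21 (GRCm38). The 20 libraries (10 conditions, 2 each) entered 1 edgeR 4.0.16 quasi-likelihood model (R 4.3.3) with TMM scaling and a filter on low counts (filterByExpr), tested by condition with Benjamini-Hochberg adjustment over 16903 genes. The SE was taken from the log2 fold change and its F statistic. Genes were named as the 12 highest and 12 lowest called genes of at least 50 CPM, a list of key genes, and per list the 3 largest called changes of at least 20 CPM and the most abundant member. Symbols of Gm plus digits were left out of the 12 highest and 12 lowest. Members and lists were chosen with earlier results of these data known. The model was tested on simulated data, in which 42% of 100 genes changed by 1.25 on the log2 scale and 89% of 100 changed by 2.5 were recovered, with 3 false calls, for day 28 against XEN over 16601 genes. The alternatives tried are given in the closing section.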

Additional observations from a re-analysis of the deposited data

Results flagged for a closer look

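Cells with 5 or more collagen UMIs, which the comparison left out, numbered 69 in day 28 replicate 1 and 2 in day 28 replicate 2, and 0 in both XEN libraries. They drew attention as signal in cells outside the sums. XEN cells had also been kept on fibroblast feeders.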

How the results depend on the processing

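Leaving out 1 of the 4 libraries gave 3668 to 4018 called genes, 2388 to 2939 higher and 947 to 1280 lower. Thinning each cell to 2000 UMIs gave 2977 called genes (2091 higher and 886 lower), with 13918 genes tested, and 60 of the genes called without thinning had the opposite sign. Under the other settings (RLE scaling, DESeq2 1.42.0, no filter on low counts, only the 4 libraries or the 10 of this conversion, at least 1000 genes per cell, collagen cells kept, fewer than 2 collagen UMIs, and, added after seeing the data, no genes of the sex chromosomes) 4466 to 5173 genes were called, within 1.5 times of 5043. Replicate numbers were not used as pairs in the main model. The replicate difference at day 28 correlated with that in XEN at 0.187 over genes, against -0.16 to 0.0988 in the other conditions. With 1 such difference per condition, this cannot decide whether the libraries were paired. A replicate block gave 4961 calls (3541 higher and 1420 lower), 97.4% of the main calls shared. Of the named genes' log2 fold changes under settings that keep every library, 1359 values kept their side of the threshold, 26 no longer passed it and 5 newly passed it. Without 1 library 441 kept it and 67 no longer passed it, and no called value of a named gene changed sign. For the named genes that lost a call without 1 library, the 4 libraries alone gave edgeR adjusted p of 9.38e-05 (Fos) to 0.0268 (Slc2a3). Of 120 shares of cells, 99 moved beyond their interval with less or no thinning, which changes the depth per cell by construction.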
